A study of Glycine max with 34 samples.

Results

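The parenchyma of the soybean embryonic axis was compared with the 5 other laser-dissected compartments of the same axis. The comparison used the 2 arrays labelled axis parenchyma and the 10 arrays of the axis epidermis, plumule, root meristem, shoot meristem and vascular bundle, 12 of the 34 arrays in the series. The groups were chosen by label alone, and all soybean probe sets with a signal above background were tested. All groups came from Glycine max cultivar Asgrow A3237 at early maturation, from seeds 6 to 7 mm long, on plants grown under a 16 h light and 8 h dark cycle at 22 °C; no genotype or treatment differed between them. Regions were cut from 8 micron sections, 2 ng of RNA per sample was amplified, and each group has 2 replicates on an Affymetrix Soybean Genome Array each. Neither the number of seeds behind a replicate nor whether compartments came from the same seeds is given, so p-values measure the spread between these samples.

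Axis parenchyma is the ground tissue of the embryonic root and stem. In a maturing legume seed, parenchyma cells are the main site where reserve proteins and oil are laid down, and many also hold protease inhibitors and lipoxygenases, which are known as defence and off-flavour proteins of soybean. Soybean seeds also accumulate isoflavones, made from phenylalanine through cinnamate, chalcones and flavanones, and soyasaponins, triterpenes that carry sugar chains; both are known to be concentrated in the embryonic axis. The array measures transcripts only. Because each sample is a dissected region, fewer cells of a type and less RNA per cell cannot be told apart.

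Signals were used as deposited, and differences are of log2(signal + 16), given as parenchyma minus the mean of the 5 other groups with the standard error of the limma fit over all 17 groups. A difference was called at a Benjamini-Hochberg adjusted p under 0.05 over the 28441 probe sets tested and a log2 difference of at least 1. A fold is 2 to the power of that difference, so a ratio of geometric means; where the dimmer group lay mostly under background, its arrays under background were set to it and the fold is a lower bound on that scale, written "at least". Background is the 95th percentile of the probe sets for other organisms on the same array, which ran from 151 to 264 over the 12 axis arrays. Hybridization controls were 1.47 and 1.43 times the median of all arrays on the parenchyma arrays and exceeded 2 times it on both epidermis arrays, both plumule arrays and vascular bundle replicate 1. Genes are named from probe sets annotated to 1 gene, 887 genes in all, each read by its brightest probe set.

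Among the 887 named genes, each read by its brightest probe set, P34, CHR5 and KTI3 had the largest excess in axis parenchyma. Of the probe sets tested, 1132 (3.98%) were higher in the parenchyma and 1016 (3.57%) were lower, 7.55% in all. Among the 887 named genes 105 were higher (11.8%) and 49 lower (5.52%). Both parenchyma arrays lay above all 10 other arrays for 1329 probe sets (4.67%) and below all 10 for 1017 (3.58%). These 2 counts rise as arrays are left out, to 2948 and 2747 without the arrays with bright controls. The 2 parenchyma arrays correlated with each other at r = 0.926 over the tested probe sets, and the array next most like each of them was root meristem replicate 1 (0.893 and 0.887).

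In the fit over all arrays, the parenchyma differed from the root meristem in fewer probe sets than from any other axis compartment. Against it 693 probe sets (2.44%) were higher and 546 (1.92%) lower, 4.36% in all. Against the epidermis the counts were 1213 (4.26%) and 951 (3.34%), 7.61% in all, and against the vascular bundle 1037 (3.65%) and 1016 (3.57%), 7.22% in all. The plumule gave 1337 higher (4.7%) and 1422 lower (5%), 9.7% in all, and the shoot meristem 1851 higher (6.51%) and 1410 lower (4.96%), 11.5% in all. These 5 comparisons share the parenchyma arrays, and their order was not tested. It turned with array weights (1552 against the root meristem, 1020 the epidermis and 1294 the vascular bundle), without the arrays with bright controls (1635 and, for the vascular bundle, 1513) and without vascular bundle replicate 1 (1327 and 1239). Of the 1132 probe sets higher than the mean of the other groups, 106 were higher in each of the 5 comparisons, and of the 1016 lower ones 71 were lower in each.

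**Figure D1:**
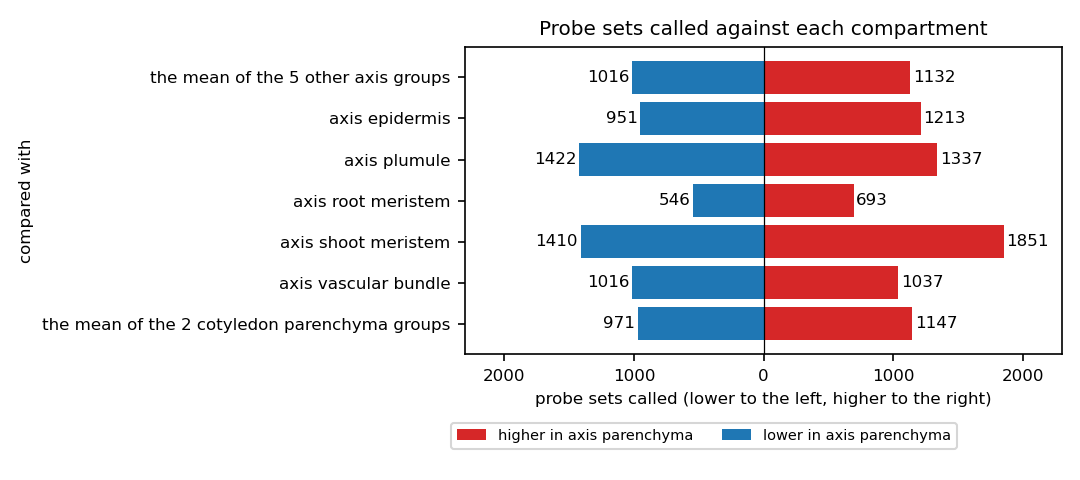
Probe sets called in axis parenchyma against the mean of the 5 other axis groups, against each of them and against the mean of the 2 cotyledon parenchyma groups; bars to the right count higher and bars to the left lower probe sets, of 28441 tested. The root meristem has the shortest bars (693 and 546) and the shoot meristem the longest to the right (1851).

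The 3 marker genes of the label, CHR5, LOX1.1 and CHI1B1, were all higher in the parenchyma; they were chosen with their values known and are no independent check. Most markers of other axis compartments and of the seed coat were low. The summed signal of the 10 vascular markers measured was 862 to 1162 on the parenchyma arrays and ranged from 697 to 28240 on the other axis arrays, with 8 of them below background on both parenchyma arrays. The transcription factor genes MYB172 (-3.02 ± 0.45, adjusted p = 3.76e-05) and BZIP16 (-2.64 ± 0.59, adjusted p = 0.00379), listed as vascular markers, were lower in the parenchyma. MYB172 was lower in 4 of the 5 single comparisons, so its deficit was not against the vascular bundle alone. Of the 10 vascular markers, 3 were lower against the vascular bundle and 3 against the plumule. BZIP16 was not called without parenchyma replicate 1 (-1.65) or without the vascular bundle (-1.74, adjusted p = 0.0689). All 5 seed coat markers were below background on both parenchyma arrays. All 5 cotyledon markers were above it, with a sum of 6924 to 7008 against 620 to 10664 elsewhere in the axis. Of the 4 epidermis markers 2 were below background, and the sum was 3605 to 6247 in the parenchyma and 703 to 54142 elsewhere; UGT78K1, a flavonoid glucosyltransferase gene, read 147 and 104 in the parenchyma against 18850 and 17068 in the epidermis. Another of the 4, SOMT-9, read 3080 and 3900 in the parenchyma, above all 10 other axis arrays, of which the highest held 2822, and was not called (1.47 ± 0.62, adjusted p = 0.15). Of the meristem list, 2 genes were measured and neither passed the test. The part of other cell types in the results below was not tested.

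P34, the gene of a papain-family seed protein known as a soybean allergen, had the largest difference of any named gene. It read 27284 and 25937 in the parenchyma, and 18.0, 189 and 2054 as the lowest, median and highest of the other 10 arrays. The parenchyma arrays stood apart from all others, the next being the epidermis. The log2 difference was 6.88 ± 0.63 (adjusted p = 3e-08), with only 6 of the 10 other arrays above background, and 4.22 in the gene's other probe set; P34 was higher in each of the 5 single comparisons. Outside the axis it read 38900 to 51421 on the 4 cotyledon parenchyma arrays, and axis and cotyledon parenchyma did not differ by the test (-0.77 ± 0.71, adjusted p = 0.607).

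Genes of the chalcone and isoflavonoid branch were higher in the parenchyma as a group. Of 18 measured, 10 rose and none fell, with a median log2 difference of 1.35. Over all probe sets tested the median was -0.02 and 3.98% were higher, and over the 887 named genes 0.12 and 11.8%. The 10 were CHR5, CHI1B1, CHS8, HIDH, IFS1, CHR1, CHI4A, CHI1A, IF7MaT and IFR2. By their symbols they span the steps from chalcone formation to the malonylated isoflavone glucosides. They include the markers CHR5 and CHI1B1, chosen with their values known. The count was 6 without parenchyma replicate 1 and 6 without replicate 2.

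C4H, cinnamate 4-hydroxylase, which acts upstream of all flavonoids, read 6313 and 5341 in the parenchyma, against 119, 787 and 2103 as lowest, median and highest elsewhere in the axis. It was higher by 2.97 ± 0.46 (adjusted p = 5.86e-05) and in each single comparison. Of the 7 genes of the phenylpropanoid entry, each read by its brightest probe set, no other was called; a dimmer probe set of PAL2.1, a phenylalanine ammonia-lyase gene, was higher by 2.35 (adjusted p = 6.16e-06).

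CHS8, a chalcone synthase that joins the phenylpropanoid unit to malonyl-CoA, read 3688 and 3524, against 60.5, 625 and 2054 elsewhere, where the vascular bundle was highest. The difference was 3.08 ± 0.37 (adjusted p = 1.58e-06). CHR5 encodes a chalcone reductase, which works with chalcone synthase to give the deoxychalcone precursor of daidzein. It read 6113 and 5227, against 15.3, 55.4 and 2059 elsewhere. Only the root meristem came near, with 2059 and 1210, and the 8 arrays of the epidermis, plumule, shoot meristem and vascular bundle were at 201 or less, near or under background. The difference was 5.58 ± 0.68 (adjusted p = 2.45e-06), and against the root meristem alone it was not called (1.83 ± 0.88, adjusted p = 0.303).

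Chalcone isomerases close the ring to give flavanones. Genes with a CHI symbol were listed by name, and whether CHI4A and CHI3A1 encode an active isomerase was not tested. CHI1B1 read 15131 and 13031 in the parenchyma, 11210 and 10142 in the root meristem and 5333 and 3516 in the epidermis, while the plumule, shoot meristem and vascular bundle had 277 to 445. It was 3.57 ± 0.37 above the mean of the 5 groups (adjusted p = 2.06e-07) and 0.40 above the root meristem, which was not called. CHI4A read 35165 and 34830, against 2017, 5662 and 15932 elsewhere, a difference of 2.49 ± 0.21 (adjusted p = 7.3e-09) that was also called in each single comparison. CHI1A was higher by 1.70 ± 0.33 (adjusted p = 0.000815), with parenchyma signals of 2648 and 2787 just above the highest other array, 2313 in the epidermis. CHI3A1 and CHI2-A were not called.

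IFS1 encodes isoflavone synthase, the cytochrome P450 that moves the aryl ring and commits a flavanone to the isoflavones. Its signal was 16631 and 16351 in the parenchyma, 12063 and 9698 in the epidermis, 7456 and 6891 in the root meristem, and 158 to 3967 in the rest. The difference was 2.70 ± 0.39 (adjusted p = 2.93e-05). Its paralogue IFS2 was measured at 1503 and 1194 and was not called (1.37 ± 0.48, adjusted p = 0.0736). HIDH, the dehydratase that follows isoflavone synthase, read 11035 and 9722, against 7.6, 2205 and 6717 elsewhere (2.91 ± 0.74, adjusted p = 0.0108). Its call was lost without parenchyma replicate 1 (2.82, adjusted p = 0.13), without replicate 2 (3.00, adjusted p = 0.106) and without the shoot meristem (1.87, adjusted p = 0.138).

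The other 3 called members had calls of the same kind. CHR1, a further chalcone reductase gene, differed by 2.52 ± 0.60 (adjusted p = 0.0067), IF7MaT, an isoflavone 7-O-glucoside malonyltransferase, by 1.33 ± 0.36 (adjusted p = 0.0156) and IFR2, an isoflavone reductase, by 1.12 ± 0.36 (adjusted p = 0.0453). All of these lost their call without either parenchyma array, CHR1 also when arrays with bright controls were left out (1.60, adjusted p = 0.125), and IFR2 under 20 alternatives in all. IF7MaT read 12374 and 12983 in the root meristem, above both parenchyma arrays (10569 and 11588).

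The isoflavonoid excess was not the same against every compartment. Of the 18 genes, 7 were higher than in the epidermis, 9 than in the plumule, 9 than in the shoot meristem and 8 than in the vascular bundle, but 2 than in the root meristem, CHS8 (1.96 ± 0.47, adjusted p = 0.0121) and CHI4A (1.19 ± 0.27, adjusted p = 0.00771). The background in these comparisons was 4.26%, 4.7%, 6.51%, 3.65% and 2.44%. The difference between these comparisons was not tested. Of 9 genes of the flavonol, anthocyanin and proanthocyanidin branch, where 3.98% higher was the share over all probe sets, none rose and 1, UGT78K1, fell (-3.01 ± 0.44, adjusted p = 3.02e-05), a call lost when arrays with bright controls were left out (-1.22, adjusted p = 0.164). In the heat map of the isoflavonoid genes, the parenchyma and root meristem columns are the warmest for CHR5 and CHI1B1. This does not hold for every row: IFS1 was higher in the epidermis than in the root meristem.

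**Figure D2:**
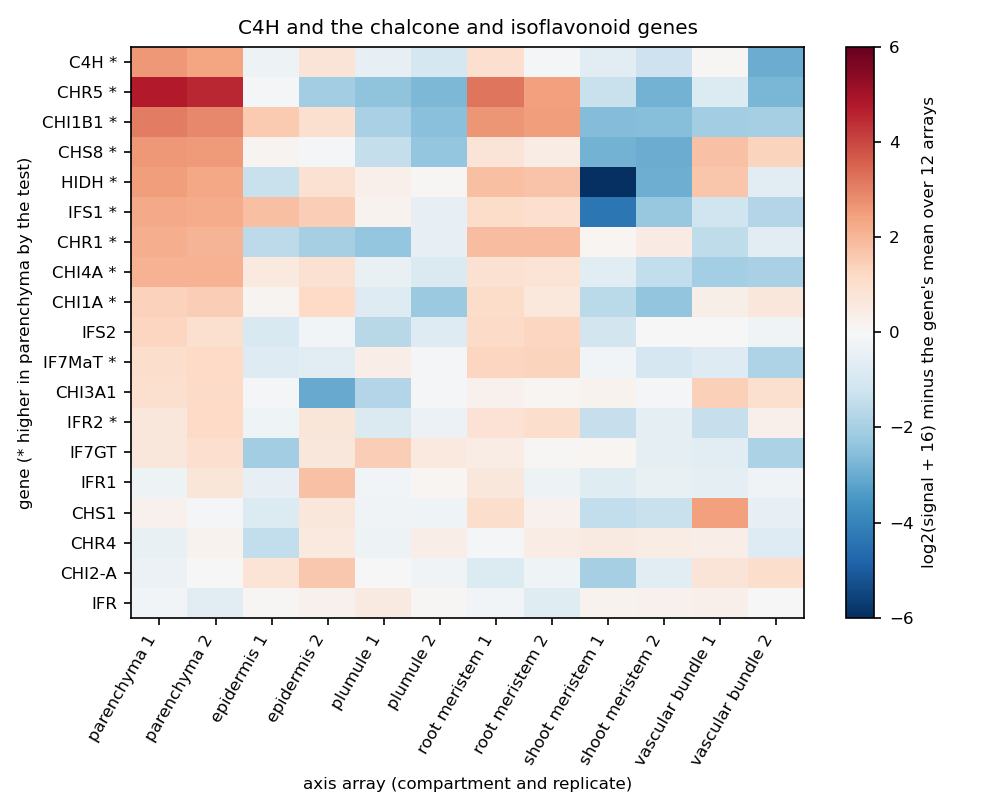
Log2(signal + 16) of C4H and the 18 chalcone and isoflavonoid genes on the 12 axis arrays, each row less its mean over the 12 arrays; rows below C4H are in order of the difference between parenchyma and the other groups, and asterisks mark called genes. CHR5 and CHI1B1 are red in both parenchyma and both root meristem columns and blue in the plumule, shoot meristem and vascular bundle.

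By Pearson's r over the 17 group means, as a description, the genes with a pattern most like CHR5 were BBI-2 (0.854), CHI1B1 (0.764), CHR1 (0.763), OAS-TL3 (0.747) and AT133 (0.737). CHR5 was highest in axis parenchyma of all 17 groups, and so were CHI1B1, CHR1 and IFS1 among the isoflavonoid genes. CHS8 and CHI4A were highest in the seed coat palisade layer instead. Group means of the same arrays enter each of these values.

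Protease inhibitor genes formed the next group. Leaving out 2 symbols, L1 and R1, that are not known inhibitor genes, 5 of 8 rose and none fell (median 2.61), where 3.98% of all probe sets and 11.8% of named genes were higher. With any 1 axis array left out the count was 4 to 6. KTI3 encodes the main Kunitz trypsin inhibitor of the seed. It read 42458 and 32287 in the parenchyma and 122, 3509 and 9114 as lowest, median and highest elsewhere, with the root meristem, epidermis and vascular bundle at 1906 to 9114 and the plumule and shoot meristem at 122 to 724. The difference was 4.27 ± 0.53, or 19.3-fold (adjusted p = 2.82e-06).

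D-II, a Bowman-Birk type protease inhibitor gene, was at 84272 and 78043 in the parenchyma and 34624 and 25354 in the root meristem. The other 8 arrays lay between 1641 and 8219. It was higher by 3.85 ± 0.69 (adjusted p = 0.000357). The Kunitz gene KTI-2 read 25625 and 23294 in the parenchyma and at most 14110 elsewhere, in the epidermis (2.81 ± 0.38, adjusted p = 8.52e-06). KTI-3 read 55428 and 55403, and at most 16552 elsewhere, in the root meristem (2.41 ± 0.35, adjusted p = 3.05e-05). Both parenchyma arrays were above all others for both genes.

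BBI-2 was called (2.37 ± 0.62, adjusted p = 0.0133), but its highest level was in the root meristem, with 3377 and 2906 against 1336 and 995 in the parenchyma, and the call was lost without parenchyma replicate 1 (2.16, adjusted p = 0.177) or 2 (2.58, adjusted p = 0.0942). BBI-1, a near relative, read 6400 and 4573 in the root meristem and 251 and 129 in the parenchyma. BBI read 2397 and 1646 in the parenchyma and 2160 and 2569 in the shoot meristem, and was not called (2.94 ± 0.99, adjusted p = 0.0588). D-II, BBI-1 with BBI-2, and BBI had their highest axis signals in 3 different compartments.

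**Figure D3:**
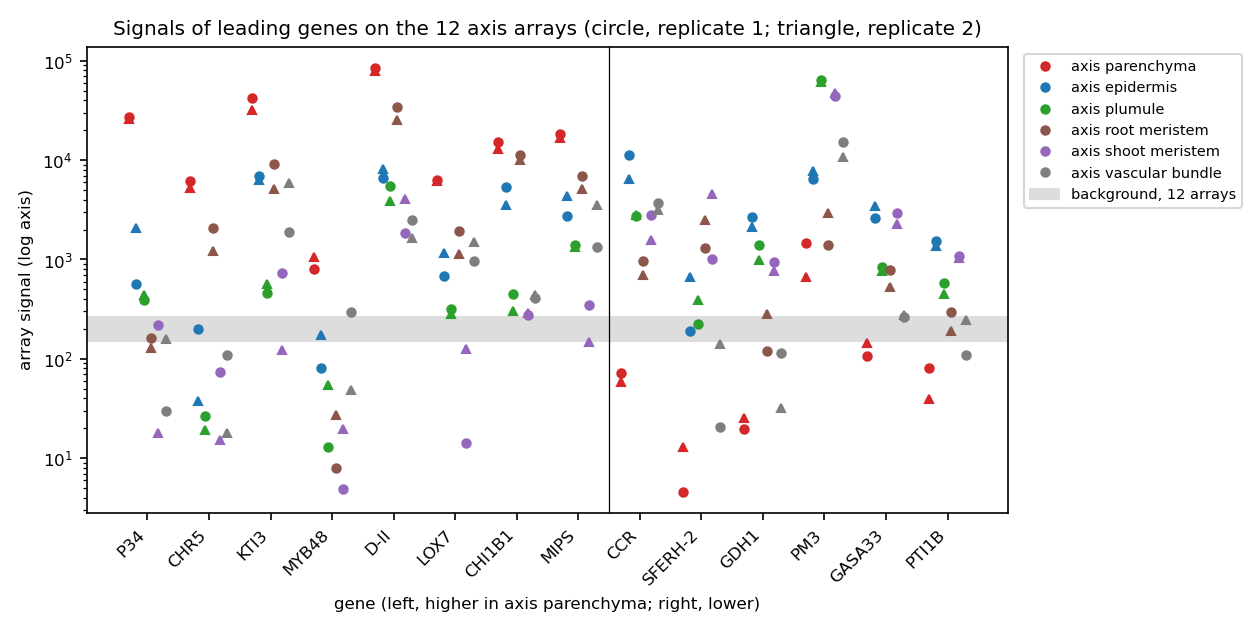
Array signal (log axis) of 8 genes higher and 6 genes lower in axis parenchyma on each of the 12 axis arrays, coloured by compartment; the grey band spans the background of the 12 arrays. P34 lies at 27284 and 25937 on the parenchyma arrays and at or below 2054 on the others, and CCR is below background on the parenchyma arrays only.

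Lipoxygenases oxidise polyunsaturated fatty acids to hydroperoxides. Of 9 measured, 5 rose and none fell (median 2.32), against 11.8% higher among named genes, and the count was 4 or 5 when any axis array was left out. LOX7 read 6348 and 6195 in the parenchyma, against 14.2, 828 and 1941 elsewhere (3.63 ± 0.59, adjusted p = 0.00011); of its 3 other probe sets 1 was called. LOX2 read 16656 and 16515, against 651, 2788 and 4094 (3.13 ± 0.57, adjusted p = 0.000446). Neither gene had any other axis array within the range of the parenchyma.

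VLXB, a vegetative lipoxygenase gene, was 2.59 ± 0.35 higher (adjusted p = 9.25e-06) and was higher in each of the 5 single comparisons. LOX1.1, the gene of a major seed lipoxygenase, differed by 2.41 ± 0.49 (adjusted p = 0.00138): it was at 65129 and 63680 in the parenchyma, 41449 to 47593 in the plumule and shoot meristem, and 2699 to 9973 in the epidermis, root meristem and vascular bundle. LOX3, at 79113 and 79415 in the parenchyma, was brighter still in the epidermis (97913 and 94762) and was not called (1.34 ± 0.59, adjusted p = 0.169), although its dimmer probe set was higher by 4.55 (adjusted p = 1.28e-07). LOX10 was called (2.32 ± 0.69, adjusted p = 0.0307) but not without parenchyma replicate 1 (2.45, adjusted p = 0.166) or 2 (2.19, adjusted p = 0.241).

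Of the 4 soyasaponin genes measured, 3 were higher, where 3.98% of all probe sets and 11.8% of named genes were higher. SGT3, the glycosyltransferase that adds the terminal rhamnose of soyasaponin I, read 13630 and 14913 in the parenchyma, against 633, 2766 and 5430 elsewhere, and was higher in each single comparison (2.64 ± 0.34, adjusted p = 5.17e-06). SGT2, which adds the galactose before it, read 41555 and 38573, against 4612, 7996 and 16157, so both genes had no overlap with any other compartment (2.24 ± 0.49, adjusted p = 0.00282). The call of SGT2 was lost without parenchyma replicate 1 (2.19, adjusted p = 0.0632) or 2 (2.30, adjusted p = 0.0538), and that of CYP72A67 (1.14 ± 0.36, adjusted p = 0.039) under 13 alternatives. CYP93E1, the P450 that oxidises the beta-amyrin skeleton, was bright throughout the axis, from 22988 to 110224, and did not pass the test by its brightest probe set (0.45 ± 0.67, adjusted p = 0.774). Its 3 other probe sets disagreed: the next brightest was higher by 1.96 (adjusted p = 0.00145), and of a pair near background 1 was higher (3.59) and 1 lower (-1.84).

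Among reserve and oil genes the changes went both ways. Of 8 storage protein genes 1 was higher and 2 lower, against 11.8% and 5.52% among named genes. CG-1, a beta-conglycinin gene, was higher in the parenchyma (6633 and 5075, against 215, 532 and 4108 elsewhere; 2.76 ± 0.42, adjusted p = 5.38e-05). GM2S-1, a 2S albumin gene, was lower. It held 55609 as the median of the other arrays, from 93629 and 103300 in the epidermis to 276 and 722 in the root meristem, and 2191 and 867 in the parenchyma (-3.36 ± 0.75, adjusted p = 0.0036). That call was lost when the bright-control arrays were left out (-1.70, adjusted p = 0.236) and without parenchyma replicate 2 (-2.69, adjusted p = 0.154). GY5, a glycinin gene, was lower (-2.76 ± 0.55, adjusted p = 0.00121), with signals at or near background outside the plumule and shoot meristem, and not called without parenchyma replicate 2 (-2.47, adjusted p = 0.0637). The other 5 of 8 storage protein genes, GY1 at 557 and 467 included, were not called.

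Of 16 fatty acid genes 3 were higher and 1 lower, against 11.8% and 5.52% among named genes. FAD2-1A, the seed oleate desaturase, read 16337 and 15104 in the parenchyma, against 680, 2300 and 4098 elsewhere (2.97 ± 0.47, adjusted p = 7.52e-05). SACPD-C, a stearoyl-ACP desaturase, read 30340 and 29886, against 3440, 4832 and 12351 (2.49 ± 0.26, adjusted p = 1.78e-07), and both desaturases were higher in each single comparison. ACCC-2, a biotin carboxylase subunit of plastid acetyl-CoA carboxylase, rose by 1.42 ± 0.22 (adjusted p = 6.44e-05). The lower one, FAD6.1, was below background on all 12 arrays and lost its call under 17 of 29 alternatives.

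MIPS, inositol phosphate synthase, which starts the route to phytate, was 10.2-fold higher (3.35 ± 0.29, adjusted p = 8.6e-09). It read 18517 and 16678 in the parenchyma, 6965 and 5115 in the root meristem and 351 and 148 in the shoot meristem, with the rest between, and was called in each single comparison. MYB48, a transcription factor gene, read 804 and 1057 in the parenchyma and 4.9, 37.7 and 294 elsewhere, where all but 1 array were below background. It was at least 4.16-fold higher (3.97 ± 0.56, adjusted p = 1.9e-05), but its dimmer probe set was not called (1.12, adjusted p = 0.386). The nitrate transporter family gene NRT1-3 (2.14 ± 0.41, adjusted p = 0.000865) and the aldehyde dehydrogenase gene ALDH2B4 (3.05 ± 0.60, adjusted p = 0.00109) also lay above all other axis arrays.

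Rubisco activase, the chaperone that reopens inhibited Rubisco, was split by gene. RCAALPHA read 13442 and 10868 in the parenchyma, against 470, 3319 and 5556 elsewhere (2.23 ± 0.20, adjusted p = 2.91e-08), and RCA14 read 13180 and 12736, against 572, 3312 and 8854 (2.16 ± 0.22, adjusted p = 1.5e-07). RCABETA read 58.3 and 13.3 in the parenchyma, below background, but 1789 to 2809 in the epidermis and plumule (-2.98 ± 0.50, adjusted p = 0.000185). Left without the bright-control arrays, which include all of those epidermis and plumule arrays, RCABETA was not called (-1.29, adjusted p = 0.2). The other 5 photosynthesis genes of 8 measured were not called by their brightest probe sets; of the 4 dimmer probe sets of CAB3, a chlorophyll-binding protein gene, 2 were higher (1.32, adjusted p = 0.000325, and 1.42, adjusted p = 0.00344).

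The GASA family, small cysteine-rich peptides regulated by gibberellin, also went both ways, with 3 of 16 higher and 4 lower, against 11.8% and 5.52% among named genes. GASA12 was at 5843 and 5534 in the parenchyma and at 5745 and 6407 in the epidermis, and between 278 and 535 in the other 4 compartments (3.15 ± 0.37, adjusted p = 1.39e-06). GASA3 read 15214 and 14356, against 1076, 3751 and 6488 elsewhere (2.32 ± 0.31, adjusted p = 9.07e-06). GASA27 was called at 1.11 ± 0.30 (adjusted p = 0.0156) but not without the root meristem (0.42, adjusted p = 0.453) or without parenchyma replicate 1 (1.15, adjusted p = 0.12) or 2 (1.06, adjusted p = 0.168).

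All 4 lower members had both parenchyma arrays below all 10 others. So did 3.58% of all probe sets tested and 26.5% of named genes called lower. GASA14 read 2789 and 2654 in the parenchyma, against 5645, 13313 and 31909 elsewhere (-2.41 ± 0.35, adjusted p = 3.02e-05). GASA32 read 290 and 295, against 824, 997 and 2132, and was lower in each single comparison (-1.93 ± 0.38, adjusted p = 0.000985). GASA33 was lower by at least 4.93-fold (-2.89 ± 0.34, adjusted p = 1.39e-06) and GASA34 by 3.23-fold (-1.69 ± 0.28, adjusted p = 0.000177).

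CCR had the largest deficit of any named gene. It read 71.9 and 58.2 in the parenchyma, below background, and 697, 2796 and 11258 as lowest, median and highest elsewhere, so it was at least 12.8-fold lower (-5.06 ± 0.32, adjusted p = 1.01e-10) and lower in each single comparison; its other probe set was also lower (-1.73, adjusted p = 0.000346). GDH1, glutamate dehydrogenase, read 19.6 and 25.4 in the parenchyma, below background, against 31.8, 849 and 2686 elsewhere (-3.77 ± 0.35, adjusted p = 3e-08). The epidermis was highest, and the vascular bundle and root meristem were at 282 or less. The dimmer probe set of GDH1 was not called (-1.23, adjusted p = 0.268). PTI1B, named for a kinase known from tomato, was at least 2.47-fold lower (-2.83 ± 0.33, adjusted p = 1.03e-06). SFERH-2, a ferritin gene, read 4.6 and 13.1, against 20.5, 532 and 4585 (-4.39 ± 0.97, adjusted p = 0.00325). It was not called without parenchyma replicate 1 (-4.14, adjusted p = 0.0792) or as the mean of its probe sets (-1.39, adjusted p = 0.209).

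Seed maturation and late embryogenesis abundant proteins, which protect cells during desiccation, were mostly not called. Of 29 measured, 1 was higher and 5 lower, with a median of -0.55, against 11.8% and 5.52% among named genes. PM3 had the lowest value (-3.79 ± 0.40, adjusted p = 2.53e-07): it read 60549 to 63743 in the plumule and 44197 and 47605 in the shoot meristem, but 1468 and 667 in the parenchyma and 1385 and 2909 in the root meristem. The other 4, PGMPM18, MP2, PM1 and PM9, and the higher one, PGMPM19, were each called in 2 of the 5 single comparisons. All 5 lost their call without parenchyma replicate 1, when the list held 1 lower and 0 higher genes; 2 were lower without the plumule, 2 without the shoot meristem and 10 without the epidermis. Against the plumule and the shoot meristem 11 of the 29 were lower in each, where the background was 5% and 4.96%, against 2 for the root meristem, 1 for the epidermis and 3 for the vascular bundle.

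Transcription factor genes were called in both directions. None of 37 WRKY genes was higher and 4 were lower, of 50 MYB genes 2 were higher and 2 lower, and of 47 bZIP genes 4 were higher and 3 lower, with family medians of -0.32, 0.05 and -0.02, where 11.8% of named genes were higher and 5.52% lower. Among the lower ones MYB60 lost its call under 22 of 30 alternatives and WRKY33 under 18. BZIP113 read 280 and 391 in the parenchyma, against 790, 1202 and 1770 elsewhere, and was lower in each single comparison (-1.72 ± 0.30, adjusted p = 0.000308). BZIP46 was also lower (-2.37 ± 0.39, adjusted p = 0.000158) and BZIP110 higher (2.00 ± 0.41, adjusted p = 0.00147), at 4362 and 4365 in the parenchyma but as high in the vascular bundle (4288 and 4185). WRKY47 was lower (-2.81 ± 0.55, adjusted p = 0.00104) but not called without parenchyma replicate 2 (-1.58, adjusted p = 0.216).

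Cotyledon parenchyma, the other ground tissue of the embryo, was compared last. Against the mean of its 2 groups, 1147 probe sets were higher in axis parenchyma (4.03%) and 971 lower (3.41%), 7.45% in all. Of the isoflavonoid genes 9 of 18 were higher and none lower, with CHR5 at 7.05 ± 0.76 (adjusted p = 2.12e-07) and CHS8 at 4.52 ± 0.41 (adjusted p = 9.4e-09). All 5 cotyledon markers were lower: GY1, glycinin, read 557 and 467 in axis parenchyma and 53394 to 64601 in cotyledon parenchyma (-6.79 ± 0.81, adjusted p = 1.12e-06). KTI3, LOX2, MIPS, FAD2-1A and SACPD-C did not differ between the 2 tissues by the test, with differences from -1.27 ± 0.52 (FAD2-1A, adjusted p = 0.146) to -0.15 ± 0.29 (SACPD-C, adjusted p = 0.841).

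The genes that set parenchyma apart within the axis were not all those that set it apart within the cotyledon. The difference between the 2 contrasts passed the test in the direction of the axis for 935 probe sets (3.29%) and of the cotyledon for 468 (1.65%), 4.93% in all. KTI-2 was 2.81 above the other axis groups but -4.75 relative to cotyledon epidermis and vascular bundle, a difference of 7.57 ± 0.49 (adjusted p = 4.54e-11). Its signals were 143 to 2718 in cotyledon parenchyma and 13880 to 26594 in the other cotyledon compartments. KTI-3 (6.24 ± 0.46, adjusted p = 5.1e-10), SGT2 (7.09 ± 0.64, adjusted p = 1.64e-08) and SGT3 (5.26 ± 0.44, adjusted p = 5.38e-09) also turned sign between the organs. All 4 soyasaponin genes were called in this test.

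GDH1 turned the other way, -3.77 in the axis and 2.78 in the cotyledon (-6.55 ± 0.45, adjusted p = 1.51e-10). It read 609 to 1638 in cotyledon parenchyma and 78.8 to 194 in the other cotyledon compartments, where background was 118 to 208. The dimmer side of both contrasts lay near or under background, so their sizes are uncertain. P34 had contrasts of 6.88 in the axis and 1.22 in the cotyledon, the latter not tested by itself, and they differed by 5.66 ± 0.82 (adjusted p = 4.32e-05). The axis contrast also holds meristems and plumule, which the cotyledon one has no match for; with axis epidermis and vascular bundle alone the count was 896, and the differences of the 6 genes given here were still called, from -6.29 for GDH1 to 7.44 for SGT2.

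**Figure D4:**
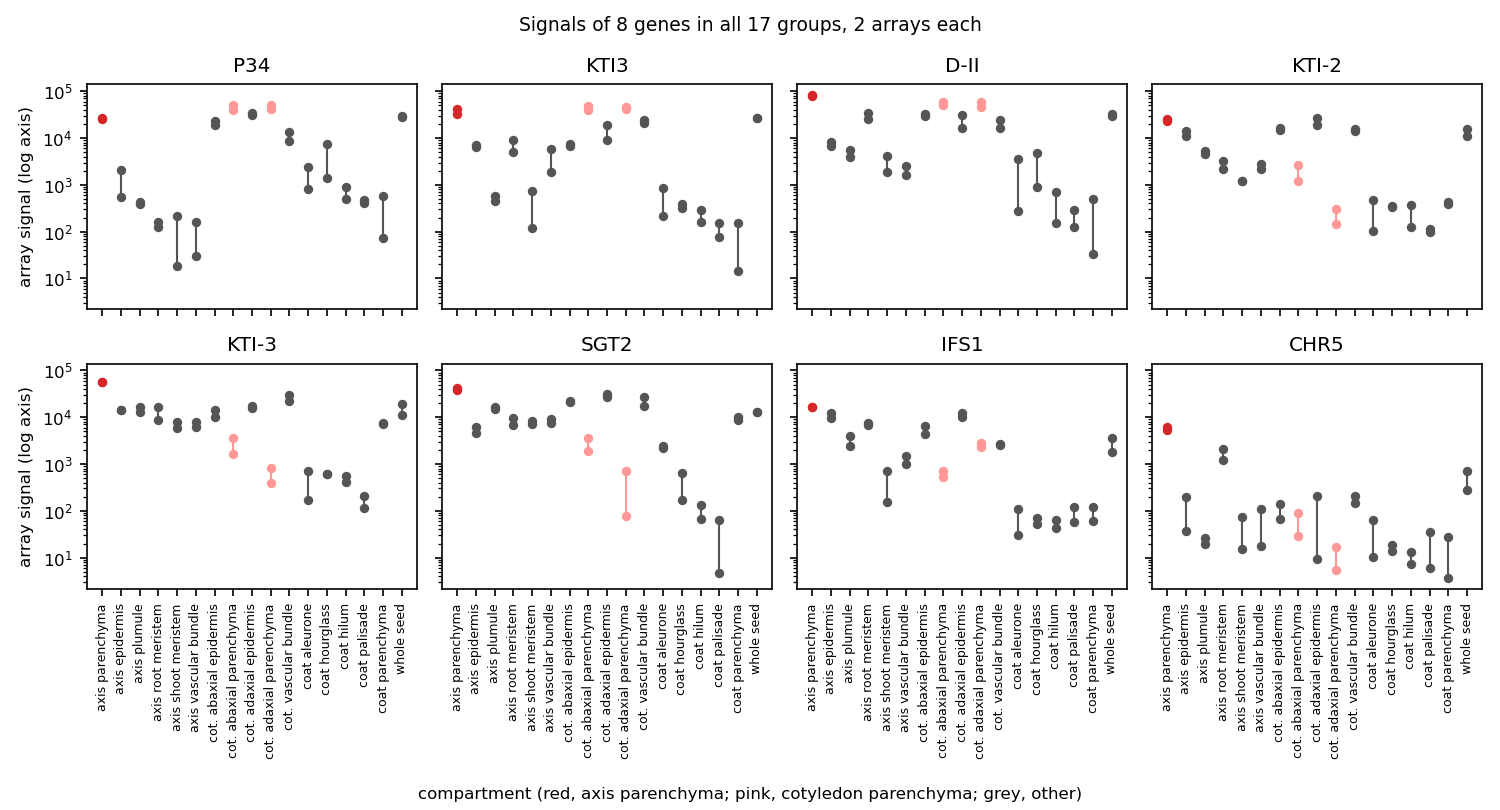
Array signal (log axis) of 8 genes in all 17 groups, 2 arrays each joined by a line, with axis parenchyma in red and cotyledon parenchyma in pink. P34, KTI3 and D-II are high in both kinds of parenchyma, whereas KTI-2, KTI-3 and SGT2 are high in axis parenchyma and lower in cotyledon parenchyma than in the other cotyledon groups.

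**Figure D5:**
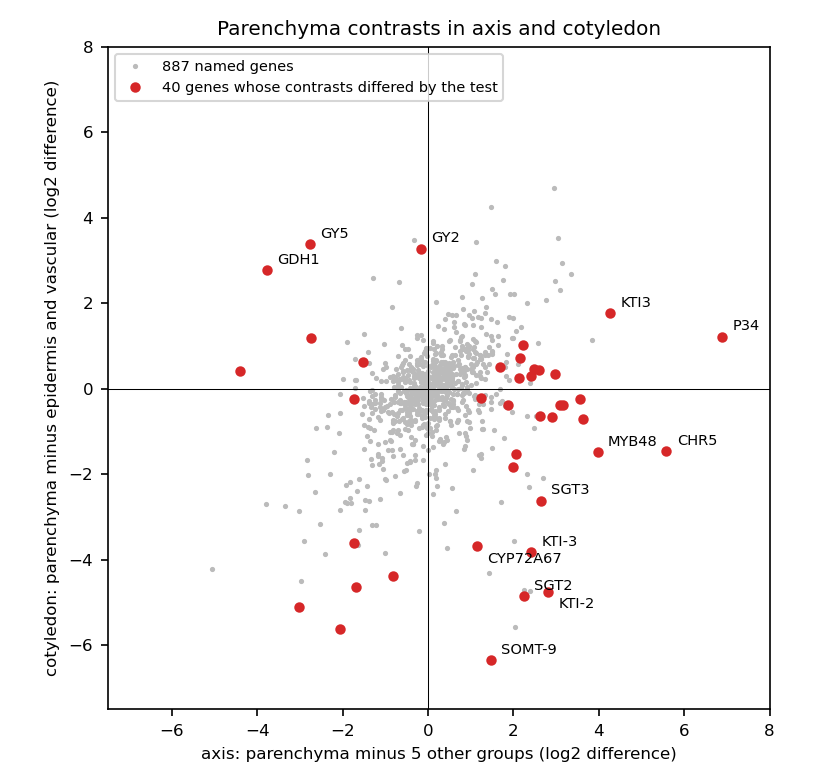
Log2 difference of parenchyma from the other groups of its organ, axis on the horizontal and cotyledon on the vertical axis, for 887 named genes (grey) and 40 described genes whose contrasts differed by the test (red). KTI-2, KTI-3 and SGT2 lie at the lower right (2.81 and -4.75 for KTI-2) and GDH1 at the upper left (-3.77 and 2.78). Of the 887 genes, 82 were higher and 20 lower in this test, so some grey points passed it too.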

How the data were processed

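The authors deposited 1 linear intensity per probe set and array for 34 arrays, made with GCOS 1.3 per the submitters' processing notes; its algorithm is not given in the sources used here. Leaving out the lowest and highest 2% of probe sets, the mean of each array was about 500 (500.05 to 500.07), so arrays had been scaled. With R 4.3.3 and limma 3.58.1, log2(signal + 16) was fitted with lmFit and eBayes (trend) over 17 groups. A soybean probe set (37593 on the array) was tested if above background on at least 2 arrays. Precision is limited by the array number. Symbols come from the platform annotation, updated by gene ID: 8677 soybean probe sets name 1 gene, 370 several and 28546 none. Probe sets marked as shared with near-identical sequences, among them those of CHR5, CHI1B1, CHI4A, CHI1A, IFS1, C4H, KTI3, KTI-2, KTI-3, SGT2, PM3, GASA14, GASA33, GASA34, RCA14 and RCABETA, may read several copies. Of 153 called or listed genes with several probe sets, 42 had a probe set with another call.

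Named genes are the 15 largest differences each way among called genes with both parenchyma arrays outside the range of the other 10 (13 were lower), the markers, and up to 4 called members of each list; further members were named after their values were seen. Members and lists were chosen with earlier results of these data known. Deviations of same-numbered arrays correlated at -0.08 to 0.03 over 15 pairs of axis groups, so no pairing by replicate number was seen. Whether same-numbered compartments came from the same seeds cannot be told from this. The fit was also run on simulated data with known differences. Their noise was independent between arrays, so that run says nothing on array-wide effects such as those of the bright controls. Alternatives covered the pseudocount, filter, normalization, variance model, replicate block, controls, probe sets and each array and compartment left out.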

Additional observations from a re-analysis of the deposited data

Results flagged for a closer look

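The excess or deficit of axis parenchyma over the other axis groups differed from that of cotyledon parenchyma over cotyledon epidermis and vascular bundle for 40 of the genes described (limma, adjusted p under 0.05 and a log2 difference of at least 1; 33 higher and 7 lower in the axis contrast). The values are the axis contrast minus the cotyledon contrast on the log2 scale. For 24 of the 40 the 2 contrasts had opposite signs. Over all probe sets tested 3.29% were higher and 1.65% lower in the axis contrast, and over the 887 named genes 9.24% and 2.25%. Many of the genes described were chosen for a large axis contrast, which is part of each value.

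Among inhibitor, seed protein and reserve genes the values were 7.57 for KTI-2, 6.24 for KTI-3, 2.5 for KTI3, 5.66 for P34, -3.44 for GY2, -6.15 for GY5 and -3.91 for PGMPM18. Soyasaponin genes gave 7.09 for SGT2, 5.26 for SGT3 and 4.83 for CYP72A67. In the phenylpropanoid and flavonoid routes, CHR5 was at 7.04, CHI1B1 at 3.82, HIDH at 3.57, F3H at 3.57, CHS8 at 3.45, C4H at 2.62, UGT78K1 at 2.10 and SOMT-9 at 7.82. Of the lipoxygenases, LOX7 was at 4.34, VLXB at 2.15 and LOX1.1 at 2.12. For desaturases the values were 2.03 (SACPD-C) and -2.13 (FAD6.1, below background on all 12 axis arrays).

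Transcription factor genes gave 5.45 for MYB48, 3.85 for BZIP110, 3.57 for MYB57 and -1.48 for BZIP113. GASA12 was at 3.53 and GASA34 at 2.95. Glutathione transferases gave 3.55 for GSTIR and 1.17 for GSTU1, and peroxidases 2.27 for PRX3 and 1.46 for PRX2. Transporter genes gave 3.25 for PIN2A, 1.90 for SUT1 and 1.89 for NRT1-3. RCA14 was at 1.46 and RCAALPHA at 1.21. GDH1 was at -6.55 and SFERH-2 at -4.80.

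The same held for 9 genes named beside the 40: AT133 (7.61), IFS1 (4.78), BBI-2 (4.67), CHI1A (4.36), LOX10 (4.32), CYP93E1 (4.17), CHI4A (3.41), CHR1 (3.17) and CHI2-A (3.11).

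With the axis epidermis and vascular bundle as the only other axis groups, a choice made after seeing the data, 24 of the 40 were called and 16 were not. Those 16 were KTI3, PGMPM18, HIDH, F3H, UGT78K1, FAD6.1, MYB57, BZIP113, GSTIR, GSTU1, PRX2, PIN2A, SUT1, RCA14, RCAALPHA and SFERH-2. Of the 9 others, LOX10 was not called (3.3, adjusted p = 0.0591), and AT133, CYP93E1 and CHI2-A were not run this way. The largest move among the 16 was that of PGMPM18, to -0.93 (adjusted p = 0.707).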

How the results depend on the processing

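With 2 arrays a group, each parenchyma array weighs on every count. Leaving out each axis array in turn, the count against the mean of the 5 groups (2148) ran from 1112 to 2373, and those against epidermis from 1213 to 2427, plumule 1717 to 2986, root meristem 631 to 1390, shoot meristem 2221 to 3512 and vascular bundle 1239 to 2531. Against cotyledon parenchyma it ran from 1247 to 2272, and for the difference of contrasts from 785 to 1524. Without parenchyma replicate 1 the first count was 1282 and without replicate 2 1112; groups then left with 1 array are assumed to vary like the others. The epidermis count (2164) was 1239 with only the 12 axis arrays and 1020 with array weights, and the vascular bundle count (2053) 1294 with array weights, which gave 1552 for the root meristem (1239 otherwise), no longer the fewest; the cause was not tested. The difference of contrasts (1403) gave 896 with epidermis and vascular bundle as the only other axis groups. All other alternatives kept these counts within 1.5 times, including the replicate block (2206 in the main comparison, 2135 of them shared with it). Of 102 called genes examined, 46 were called under every alternative run, 43 lost their call without parenchyma replicate 1, 36 without replicate 2 and 18 without the arrays with bright controls. With only the 12 axis arrays 18 of the 102 lost their call, and the count against the mean of the 5 groups was 1517. Without the shoot meristem 21 of the 102 lost it. GSTU47 (-2.09) alone changed sign, to 0.10 (adjusted p = 0.935) as the mean of its probe sets. Glutathione transferases had 7 of 21 higher, but 2 without either parenchyma array, and soyasaponin genes 3, but 1 without either. Calls of single genes against 1 compartment were not recomputed. Signals below background, 151 to 264 in the axis, limit the size of a fold.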

Other observations

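Several gene groups not described above also held called members. Glutathione transferases, which join glutathione to reactive compounds, had 7 of 21 members higher and 2 lower in axis parenchyma, against 11.8% and 5.52% of named genes; without either parenchyma array 2 were higher. GSTU1 read 1641 and 1613 in the parenchyma, 1025 and 1686 in the epidermis and 180 to 943 elsewhere (1.68 ± 0.25, adjusted p = 3.07e-05), so it did not stand above every compartment. Genes with cyclophilin symbols, a prolyl isomerase family set apart after the data were seen, had 3 of 12 higher and none lower, against the same shares. CYP1 was at 19267 and 15282 in the parenchyma, above all other axis arrays, the highest of which held 11999 in the vascular bundle (1.22 ± 0.15, adjusted p = 2.09e-06). Peroxidase gene PRX3 read 2323 and 1753 in the parenchyma and 2102 and 1754 in the epidermis, and was higher than the mean of the 5 groups (1.88 ± 0.30, adjusted p = 9.07e-05).

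Of 18 aquaporin genes 2 were higher and 1 lower, close to the shares among named genes (11.8% and 5.52%). PIP2-6, a plasma membrane aquaporin gene, read 16096 and 15610 in the parenchyma 803 and 1266 in the root meristem and 18245 and 9983 in the vascular bundle, so its ranges overlapped. Its difference of 1.5 ± 0.25 (adjusted p = 0.000126) was 0.89 (adjusted p = 0.0199) without the root meristem, under the log2 difference of 1 needed for a call. PIN2A, named for an auxin efflux carrier, read 2455 and 1863 in the parenchyma, 2328 and 1857 in the epidermis and 36.3 to 612 elsewhere (2.62 ± 0.51, adjusted p = 0.000996).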
